A study of Homo sapiens with 27 samples.

Results

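The genes described here are 47 human genes that interferons switch on in most cell types, among 60604 gene entries of a deposited RNA-seq count table. They were chosen by name, from a list of classical interferon-stimulated genes, and each was found in the table through its Ensembl identifier. RNA was sequenced from EA.hy926 cells, a hybrid of umbilical vein endothelium and A549 lung carcinoma cells that is widely used as an endothelial line. Mesenchymal stromal cells (MSCs) came from ASC52telo, an adipose-derived line immortalised with telomerase, so both sides of the experiment rest on 1 line each. The question was what young and senescent MSCs do to endothelial cells through matrix, through secreted factors and through contact. Control EA.hy926 cells had no exposure. All other groups were exposed for 48 h. The ECM groups were seeded on extracellular matrix left after MSCs had been removed with detergent, the CM groups received conditioned medium of MSCs mixed with an equal volume of their own medium, and the co-culture groups grew together with MSCs in equal parts. In each mode the MSCs were either young, meaning untreated, or senescent, meaning treated with the DNA crosslinker mitomycin C at 1.5 µg/mL for 18 h and kept for 10 more days. The 7 groups had 4 libraries each except senescent co-culture, which had 3. The values below are from replicates 2 to 4, with n = 3 in every group, and replicate 1 is given apart.

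Type I and type III interferons bind receptors on the cell surface, and the kinases JAK1 and TYK2 then act on transcription factors in the cytoplasm. A complex that holds STAT2 and IRF9 binds the interferon-stimulated response element, a promoter motif built from repeated GAAA blocks, and turns on genes that hinder viruses at entry, RNA replication, translation and release. Endothelial cells carry these receptors, and interferon responses are also known from senescent cells, where nucleic acids in the cytosol can start them.

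Promoter sequences are shown because a class of regulatory motif is common among these genes, though not found in all. RefSeq promoters (GRCh38.p14) were given for 37 of the 47 genes. A motif of 2 GAAA blocks with any 2 bases (NN) between them, a core shared by such response elements, was searched on both strands in the 250 bases upstream of the start. It was found in 24 of the 37 (64.9%), against 1014 of all 27305 genes with RefSeq promoters of the same length (3.71%). In the window of 300 bases that includes the first bases of the transcript the counts were 26 members (70.3%) and 1195 genes (4.38%). A match describes the letters only, and overlapping matches were counted separately. The genes were chosen as classical interferon-stimulated genes, so the share with the motif describes that choice and is not a result of these libraries. The stretches below belong to IFITM1, which fell between young and senescent co-culture, to genes whose senescent libraries all lay below the young ones without passing the test (IFIT1, IFIH1, IFI44L, ISG15, PARP9), to BST2 and IFI6, which were among the largest differences between young co-culture and control, and to ISG20, whose fitted change had the opposite sign. Each is 60 bases long, 5′ to 3′ on the strand of its gene, and capitals mark every base of a match, with TTTC blocks being the same motif on the other strand.
IFITM1: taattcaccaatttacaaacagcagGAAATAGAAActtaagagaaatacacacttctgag
IFIT1: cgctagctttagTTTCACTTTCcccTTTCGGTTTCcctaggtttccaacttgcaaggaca
IFIH1: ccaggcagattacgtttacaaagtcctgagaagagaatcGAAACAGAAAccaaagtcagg
IFI44L: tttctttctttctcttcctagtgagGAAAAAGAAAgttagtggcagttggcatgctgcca
ISG15: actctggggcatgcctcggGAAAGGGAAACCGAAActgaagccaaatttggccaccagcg
PARP9: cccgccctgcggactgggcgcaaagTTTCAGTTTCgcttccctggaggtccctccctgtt
BST2: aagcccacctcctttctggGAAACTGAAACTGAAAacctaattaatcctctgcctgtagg
IFI6: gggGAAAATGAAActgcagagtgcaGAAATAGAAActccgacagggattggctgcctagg
ISG20: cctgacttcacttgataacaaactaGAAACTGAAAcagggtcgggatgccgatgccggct

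These stretches lie at IFITM1 chr11:313975-314034 (plus strand), IFIT1 chr10:89392495-89392554 (plus strand), IFIH1 chr2:162318685-162318744 (minus strand), IFI44L chr1:78620350-78620409 (plus strand), ISG15 chr1:1013365-1013424 (plus strand), PARP9 chr3:122564307-122564366 (minus strand), BST2 chr19:17405720-17405779 (minus strand), IFI6 chr1:27672251-27672310 (minus strand) and ISG20 chr15:88638922-88638981 (plus strand). ISG15 and BST2 each hold overlapping copies in a single run, IFIT1 holds a pair of copies on the opposite strand separated by a few bases, and IFI6 shows a pair here. The promoters of XAF1, OAS1, IRF9, STAT2, HERC6 and SP110 were searched and do not hold these letters in the 250 bases. MX2, OAS2, IFIT2, IFITM2, IRF7, OASL, USP18, DHX58, TRIM22 and GBP2 were not among the promoters used. The 47 genes include neighbours: IFIT2, IFIT3, IFIT1 and IFIT5 lie within chr10:89283694-89421001, OAS1, OAS3 and OAS2 within chr12:112906777-113011723, IFITM2, IFITM1 and IFITM3 within chr11:307631-327537, MX2 and MX1 within chr21:41361943-41459214, and PARP9, DTX3L and PARP14 within chr3:122527924-122730840 (GENCODE 29, GRCh38). Genes of such a neighbourhood are therefore not independent examples.

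Library totals ran from 66320519 to 111512357 counts. Summed CPM of 15 stromal markers was 115.79 to 212.82 in control and 475.25 to 746.39 in young and 736.62 to 792.95 in senescent co-culture, while 14 endothelial markers summed to 2347.3 to 3462.2, 5006.8 to 6101 and 5539.5 to 6096.2 CPM. CPM is the count of a gene scaled to a common library size, with TMM factors applied. Epithelial markers summed to 1970.4 to 2496.4, 3835.3 to 4512.5 and 3129.3 to 3588.4 CPM, led by KRT7 and KRT8, and haematopoietic markers to at most 6.4128 CPM in these groups. CLDN5 was at 0 in control and in senescent co-culture, the other endothelial markers being detected. In replicate 1 of control, ECM and CM the stromal sum was 6126.1 to 10765 CPM, so these 5 libraries, labelled endothelial, carry much stromal RNA. No label tells if the cell types were sorted apart before RNA was taken from co-cultures. The extraction text gives MSCs as the source, whereas the samples are labelled endothelial.

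In co-culture with senescent MSCs the interferon-stimulated genes stood lower than in co-culture with young MSCs. Of the 46 genes tested 4 fell, namely MX2, OAS2, XAF1 and IFITM1, and 0 rose at an adjusted p under 0.05, beside 0.079% of all 17729 genes called lower and 0.316% called higher (0.395% in all). The 46 were those that passed the filter on low counts; CMPK2, a mitochondrial nucleotide kinase gene, did not, with at most 9 counts in a library of these groups. The fitted change was below 0 for 44 of the 46 genes, against 49.9% of all genes tested, and its median was −0.49 on the log2 scale, against 0.000534 for all genes. At an unadjusted p under 0.05, 26 members were lower and 0 higher, against 2.74% and 2.85% of all genes. In 27 members every senescent library lay below every young one (6.7% of all genes), and in 1, ISG20, every one lay above (7.11% of all genes). In bulk RNA, fewer cells of a type and less RNA per cell cannot be told apart. In a fit that took in replicate 1 of both young co-culture and control 0 members passed, and leaving out any 1 of the 6 libraries left 2 (without young replicate 3) or 1 (without each of the others), MX2 in each case. DESeq2 called 10 members lower, beside 57 of all 17729 genes. Scaling on endothelial markers left 1, MX2, with a median of −0.50, beside 0.0282% of all genes called lower.

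**Figure D1:**
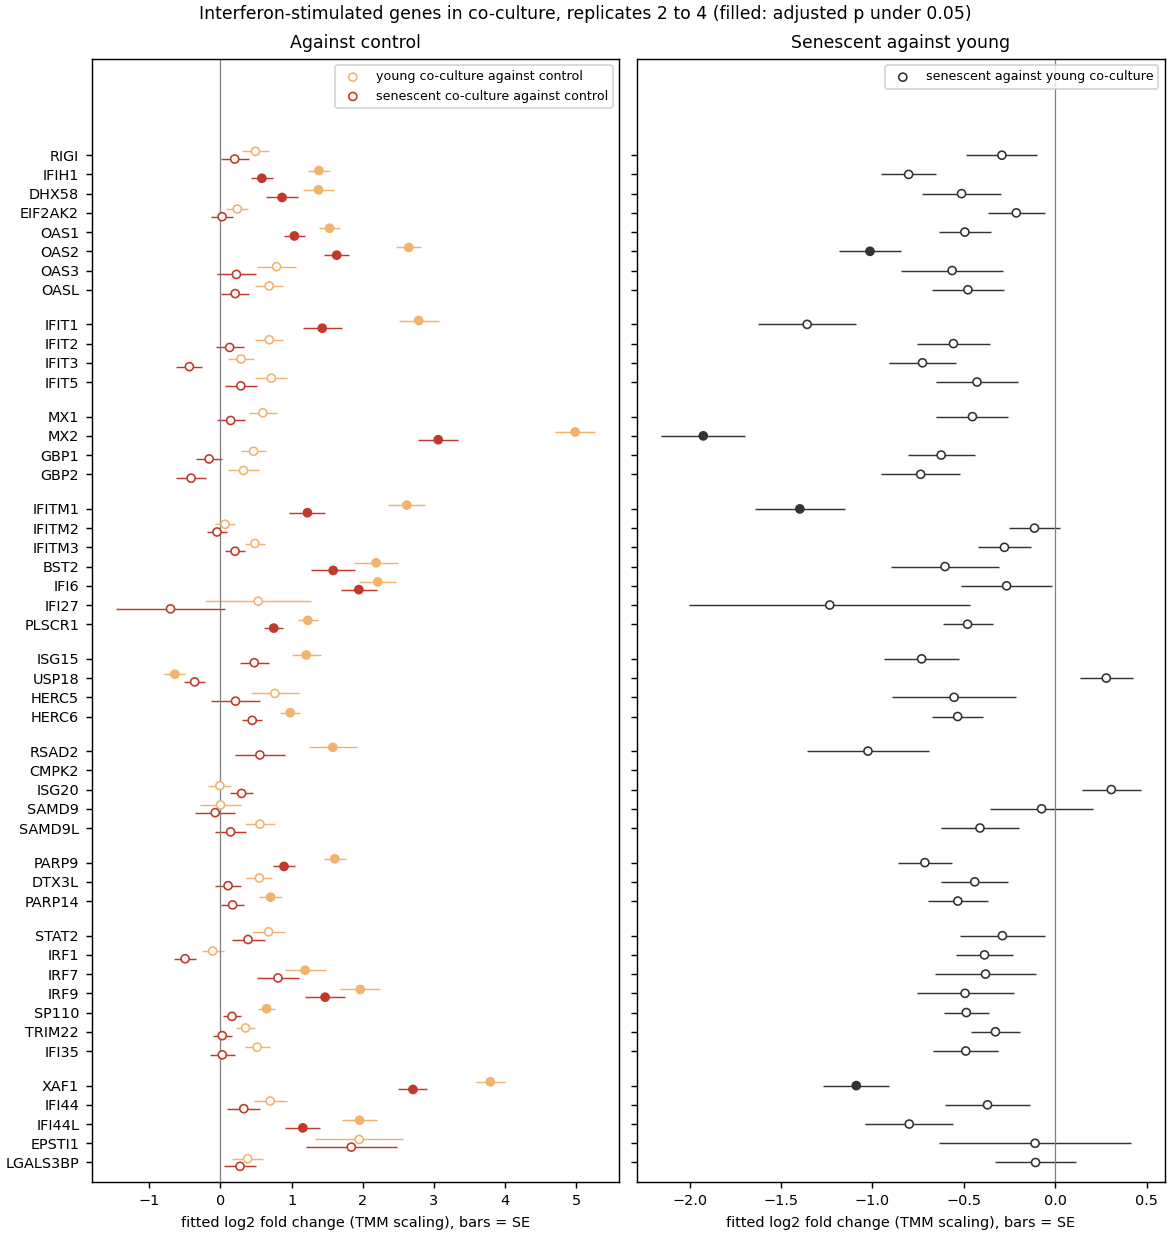
Fitted log2 fold changes with standard errors for each member, grouped by role, in replicates 2 to 4; filled points passed an adjusted p of 0.05 and CMPK2 was not tested. Left, young and senescent co-culture against control, where scaling on endothelial markers turns part of the directions (2 and 4 of the called members go below 0). Right, senescent against young co-culture, where 44 of 46 points lie left of 0.

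MX2 and MX1 encode dynamin-like GTPases that block viruses near the nucleus and in the cytoplasm. MX2 (ENSG00000183486.14, chr21:41361943-41409390, plus strand) stood at 3.53, 4.24 and 4.82 CPM in young co-culture, at 1.29, 1.22 and 0.768 CPM in senescent co-culture and at 0.129, 0.112 and 0.165 CPM in control. The 3 groups did not overlap, and the senescent libraries stood between the others. The change was −1.93 ± 0.23 (SE) on the log2 scale, with an adjusted p of 0.00341. MX1 was at 2.02 ± 0.29 (SD) CPM with young and 1.46 ± 0.0449 CPM with senescent MSCs, and its change of −0.45 ± 0.20 did not pass (adjusted p = 0.839). The guanylate-binding proteins GBP1 and GBP2, GTPases that act on vacuoles and viral envelopes, had libraries that did not overlap either: GBP1 stood at 18.4, 20.7 and 24.7 CPM with young and at 13.1, 13.2 and 14.8 CPM with senescent MSCs. GBP2 stood at 2.57, 2.81 and 3.50 CPM with young and at 1.80, 1.83 and 1.66 CPM with senescent MSCs. Their changes of −0.62 ± 0.18 and −0.74 ± 0.21 did not pass the threshold (adjusted p = 0.363 and 0.361), and in control GBP1 (11.6 to 18.9 CPM) overlapped both co-cultures. GBP2 in control (1.84 to 3.19 CPM) overlapped young co-culture and lay above all 3 senescent libraries.

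The OAS enzymes make 2′-5′-linked oligoadenylate on double-stranded RNA and so activate RNase L. OAS2 (ENSG00000111335.14, chr12:112978395-113011723, plus strand) was at 62.6, 58.5 and 82.8 CPM in young co-culture and at 33.8, 36.8 and 29.7 CPM in senescent co-culture, with 9.32, 11.6 and 12.5 CPM in control. Every senescent library lay below every young one and above every control. The change was −1.01 ± 0.17, with an adjusted p of 0.0255. Its neighbour OAS1 stood at 98.6 ± 11.8 CPM with young and 69.5 ± 7.07 CPM with senescent MSCs (−0.49 ± 0.14, adjusted p = 0.34). OAS3 and the catalytically inactive OASL had changes of −0.56 and −0.48, which did not pass. Among the RNA sensors, IFIH1 (MDA5), which binds long double-stranded RNA, was at 14.1, 12.5 and 15.9 CPM with young and 7.56, 8.56 and 8.06 CPM with senescent MSCs. Its libraries did not overlap, and its change of −0.80 ± 0.15 just missed the threshold (adjusted p = 0.054). RIGI, the sensor of short RNA ends, DHX58 (LGP2), which modulates both sensors, and EIF2AK2 (PKR), a kinase that halts translation, had changes of −0.29, −0.51 and −0.21. In this role 1 of 8 genes was called and all 8 had a negative fitted change.

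IFIT proteins bind viral RNA caps and ends and block translation. IFIT1 was at 33.2, 53.1 and 49.5 CPM with young and 17.6, 21.1 and 14 CPM with senescent MSCs, against 4.10, 8.32 and 7.81 CPM in control. The 3 groups were apart from each other, yet the spread was wide and the change of −1.36 ± 0.27 had an adjusted p of 0.0704. IFIT3, which stabilises IFIT1 on RNA, stood at 27.0, 33.5 and 36.7 CPM with young and 17.9, 19.9 and 20.7 CPM with senescent MSCs (−0.73 ± 0.18, adjusted p = 0.228). In IFIT3 the lowest senescent values lay below the control range of 20.1 to 30.9 CPM. IFIT2 stood at 12.5, 13.2 and 15.6 CPM against 7.82, 9.58 and 10.5 CPM (−0.56 ± 0.20, adjusted p = 0.616). IFIT5 had a change of −0.43, so that all 4 IFIT genes were negative in fit and none passed.

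The membrane restriction factors act at entry and exit of viruses. IFITM1, which stiffens membranes against fusion (ENSG00000185885.17, chr11:313506-315272, plus strand, with the promoter stretch above), was at 5.51, 7.04 and 6.63 CPM with young, 3.00, 2.37 and 1.86 CPM with senescent MSCs and 1.32, 1.15 and 0.717 CPM in control. The groups did not overlap, and the fall was −1.40 ± 0.25 with an adjusted p of 0.0364. Its close relatives did not pass: IFITM2 stood at 148 ± 10.2 CPM with young and 135 ± 16.2 CPM with senescent MSCs, and IFITM3 at 457 ± 40.8 and 374 ± 55 CPM, with overlapping libraries and changes of −0.11 and −0.28. IFITM1 shares 351 bases of annotated exon with IFITM2 on the same strand, and the coding sequences of the family are alike, so how reads were divided among them is uncertain. BST2 (tetherin), which holds budding virions at the cell surface, was at 2.79, 3.19 and 2.92 CPM with young and 2.40, 2.40 and 1.01 CPM with senescent MSCs. Senescent replicate 4 stood far below the other libraries, and the change of −0.60 ± 0.30 had an adjusted p of 0.962. The same library was low for IFI6, a mitochondrial and endoplasmic reticulum protein that counters apoptosis and flavivirus replication, at 59.5 CPM where the senescent group reached 141 CPM and the young group ran from 114 to 139 CPM (−0.27 ± 0.25, adjusted p = 1). PLSCR1, a phospholipid scramblase, had a change of −0.48 ± 0.14 without overlap. IFI27 varied more within groups than between them, at 0.404 to 5.08 CPM in control alone.

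In the ISG15 system, a ubiquitin-like modifier with its ligases and its protease, ISG15 itself was at 49.3, 71.5 and 74.4 CPM with young and 42.6, 46.0 and 28.3 CPM with senescent MSCs (−0.73 ± 0.20, adjusted p = 0.328). Its senescent libraries lay below its young ones, replicate 4 within the control range of 27.3 to 31.0 CPM. HERC6, a ligase of the HERC family, was at 33.6, 32.7 and 36.9 CPM against 23.3, 25.5 and 22.0 CPM, again without overlap (−0.53 ± 0.14, adjusted p = 0.264). HERC5, the main human ISG15 ligase, had a change of −0.55 at 0.814 to 2.40 CPM in the co-cultures. USP18, which removes ISG15 and blocks the interferon receptor, was 1 of the 2 members with a positive fitted change (0.28 ± 0.15, adjusted p = 1), at 19.2 ± 1.86 CPM with young and 23.2 ± 3.82 CPM with senescent MSCs. USP18 has a near-identical copy, USP41, so its counts are uncertain.

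The PARP9 module joins ADP-ribosylation with ubiquitin: PARP9 and DTX3L form an enzyme pair, and PARP14 is a related ADP-ribosyltransferase. PARP9 stood at 82.5, 85.8 and 91.7 CPM with young and at 51.6, 55.4 and 50.6 CPM with senescent MSCs. Both groups were tight and far apart, and the change of −0.71 ± 0.15 had an adjusted p of 0.0912. PARP14 was at 103, 78.3 and 96.1 CPM against 56.1, 65.0 and 69.6 CPM (−0.53 ± 0.16, adjusted p = 0.44). DTX3L had a change of −0.44 with overlapping libraries. PARP9 and DTX3L lie on opposite strands and share 217 bases of exon, and the strand setting of the counting is not known.

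Among the regulators of the response itself no gene passed. STAT2 and IRF9, which act in 1 complex, had changes of −0.29 ± 0.23 and −0.49 ± 0.27, and IRF1 and IRF7 had −0.39 and −0.38. TRIM22, a nuclear antiviral regulator and the most abundant gene of this role, was at 137, 136 and 127 CPM with young and 108, 108 and 101 CPM with senescent MSCs. Its libraries did not overlap, at a change of −0.33 ± 0.13 (adjusted p = 0.776). SP110 and IFI35 each had a change of −0.49. IRF9 shares 48.4% of its exon bases with another annotated gene on its strand, so its counts are uncertain too. All 7 genes were negative in fit, between −0.49 and −0.29.

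The nucleic acid enzymes were mixed. SAMD9, a restriction factor of poxviruses and the most abundant of them, was at 167, 184 and 180 CPM with young and 159, 173 and 170 CPM with senescent MSCs (−0.08 ± 0.28, adjusted p = 1), and its paralogue SAMD9L had −0.41. RSAD2 (viperin), a radical SAM enzyme that makes a chain-terminating nucleotide, was at 0.869 ± 0.223 CPM against 0.420 ± 0.135 CPM (−1.02 ± 0.33, adjusted p = 0.505). ISG20, an RNA exonuclease, was at 35.8 ± 4.44 CPM with young and 44.1 ± 0.79 CPM with senescent MSCs (0.31 ± 0.16, adjusted p = 1). Its promoter stretch with the motif is among those shown above.

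XAF1, a pro-apoptotic partner of the inhibitor XIAP (ENSG00000132530.17, chr17:6755447-6775647, plus strand), was at 5.58, 5.63 and 5.92 CPM with young, 2.84, 2.93 and 2.23 CPM with senescent MSCs and 0.349, 0.520 and 0.397 CPM in control. It was the tightest of the 4 called genes in young co-culture, with no overlap among the groups, and its log2 change was −1.09 ± 0.18 with an adjusted p of 0.0255. Opposite-strand transcript PRAL covers 38.3% of its exon bases. IFI44L, a feedback regulator of the response, stood at 25.3, 36.1 and 38.5 CPM against 19.3, 22.6 and 15.2 CPM (−0.80 ± 0.24, adjusted p = 0.401). IFI44, EPSTI1 and LGALS3BP had changes of −0.37, −0.11 and −0.11. EPSTI1 stood at 0.298 CPM or less in every control and co-culture library of replicates 2 to 4.

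**Figure D2:**
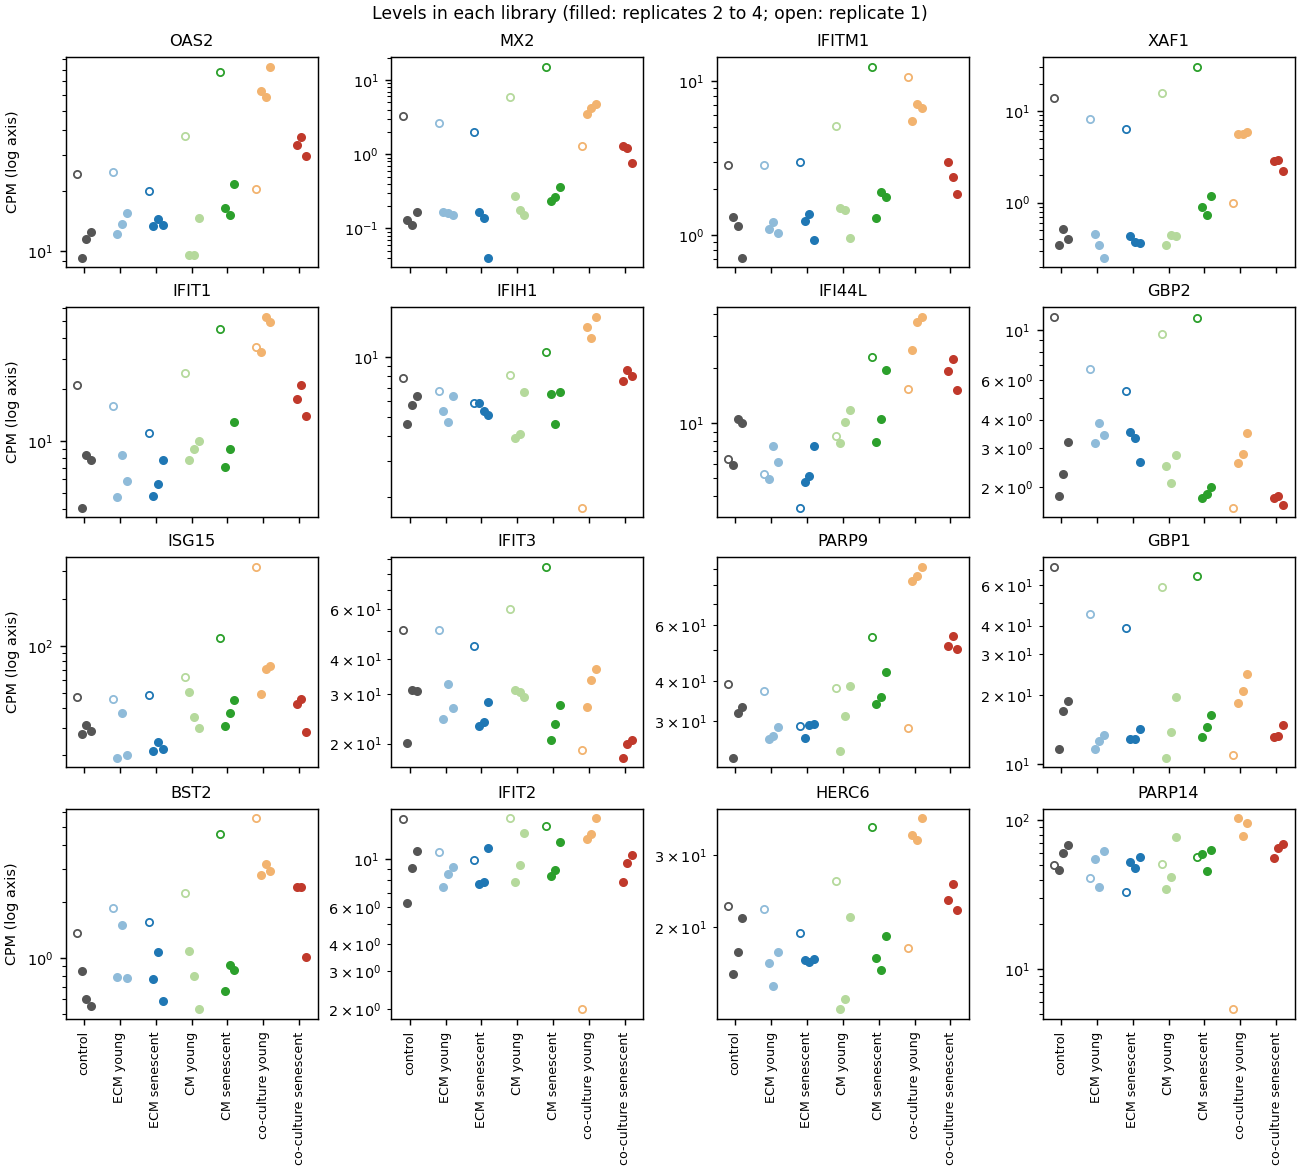
CPM of 16 members in each library on log axes, by group, with replicates 2 to 4 filled and replicate 1 open. MX2 runs from 0.112 to 0.165 CPM in control, from 0.768 to 1.29 in senescent and from 3.53 to 4.82 CPM in young co-culture, and the open points of control, ECM and CM lie above their filled ones for MX2, XAF1 and GBP1.

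Stromal markers moved with this comparison. With senescent MSCs 6 of the 15 rose and 0 fell: COL1A1 was at 71.2, 59.9 and 47.8 CPM with young and at 165, 133 and 117 CPM with senescent MSCs, and LRRC15 went from a mean of 0.474 to 2.67 CPM (adjusted p = 0.00341). TERT, which the MSC line overexpresses, went the other way in level, from 7.91, 6.26 and 6.01 CPM to 4.38, 3.86 and 2.97 CPM (−0.84 ± 0.19, adjusted p = 0.134), and was picked here after its values were seen. Of the endothelial markers 0 of 12 tested were called. The part of stromal cell number in the lower interferon-stimulated genes was not tested. The stromal sum holds the 6 markers that rose, which by itself lowers a ratio to it in senescent co-culture. TERT, also in the sum, was lower there, so such ratios do not measure the share of MSCs. Measured against this sum, MX2 stood at 4.73, 8.91 and 8.95 CPM per 1000 CPM of stromal markers in young co-culture. In senescent co-culture MX2 stood at 1.75, 1.59 and 0.968. In the 5 libraries of replicate 1 that are rich in stromal RNA MX2 stood at 0.276 to 1.43, and in control replicates 2 to 4 at 0.655 to 0.969. XAF1 gave 7.48 to 11.9 per 1000 CPM in young and 2.82 to 3.85 in senescent co-culture, 0.872 to 2.90 in those 5 libraries and 1.78 to 4.49 in control. For both genes young co-culture lay above all of these. Control cells had no MSCs added, so the ratios of control replicates 2 to 4 say nothing of RNA from MSCs. OAS2 gave 83.9 to 154 in young and 37.4 to 47.9 in senescent co-culture, and IFITM1 gave 7.39 to 14.8 and 2.34 to 4.07. For these 2 genes the control libraries, at 47.5 to 100 for OAS2 and 3.37 to 9.95 for IFITM1, overlapped young co-culture.

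**Figure D3:**
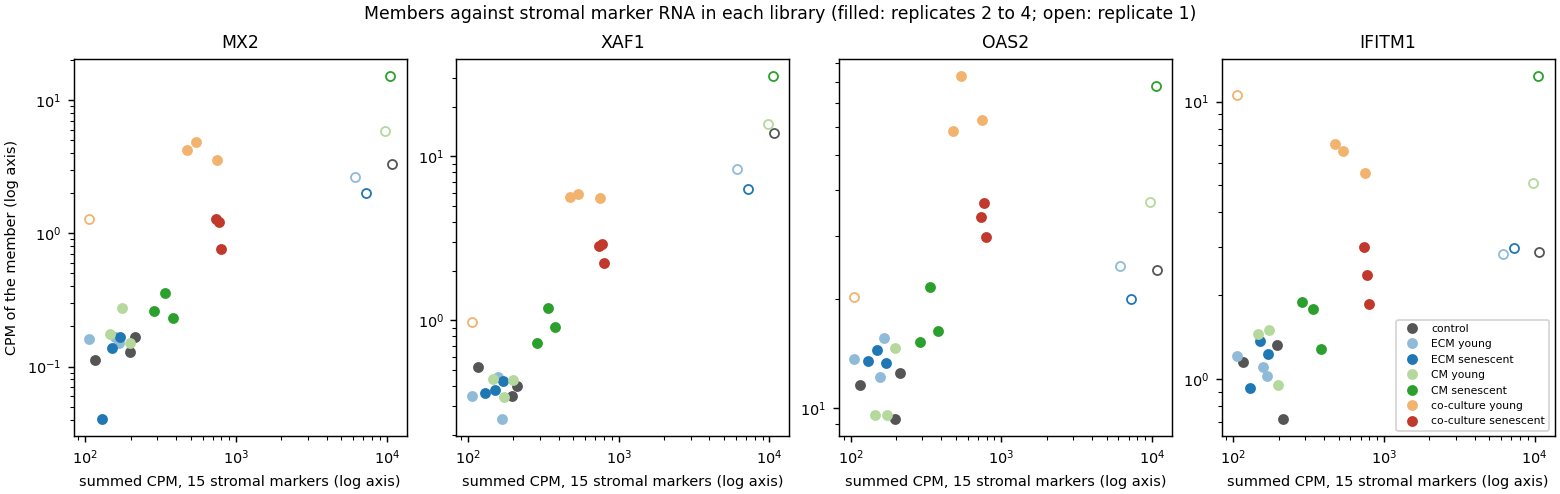
CPM of MX2, XAF1, OAS2 and IFITM1 against the summed CPM of 15 stromal markers in each library, both axes logarithmic, replicate 1 open. The young co-culture points of replicates 2 to 4 stand above the senescent ones at stromal sums of 475.25 to 746.39 against 736.62 to 792.95 CPM, and the stromal-rich replicate 1 libraries run from 6126.1 to 10765 CPM.

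Against control cells, 20 of the 46 genes rose in young co-culture, 6.71% of all genes being called higher, and 1 fell (2.97% of all genes, 9.68% in either direction); with scaling on endothelial markers, which shifts the median of all genes by −0.951, 11 were called higher (1.58% of all genes) and 11 lower (75.1% of all genes) and PARP14 and SP110 turned negative. The median fitted change of the members was 0.70, against 0.0148 for all genes, and −0.28 against −0.951 with the other scaling, where 42 of the 46 lay above the median of all genes. In 31 members every young library lay above every control library (14.3% of all genes), and in 1 below (12.2%). MX2 had a change of 4.99 ± 0.28 (adjusted p = 5.22e-06), XAF1 3.79 ± 0.21, IFIT1 2.79 ± 0.28, OAS2 2.65 ± 0.18 and IFITM1 2.62 ± 0.26. These 5 also passed with endothelial scaling, at 4.06, 2.81, 1.79, 1.66 and 1.66. So did IFI6, BST2, IRF9, IFI44L, PARP9 and OAS1, whose changes were 2.21, 2.19, 1.96, 1.96, 1.61 and 1.53 with the main scaling. IFIH1, DHX58, PLSCR1, ISG15, HERC6, RSAD2, PARP14, IRF7 and SP110 passed only with the main one. USP18 fell by 0.64 ± 0.15 (adjusted p = 0.0182), from 30.8 ± 1.65 to 19.2 ± 1.86 CPM, and by 1.61 with endothelial scaling. Here 13 of 15 stromal and 11 of 12 tested endothelial markers also rose, as did KRT7 and KRT8, and their part was not tested. The endothelial scaling assumes that endothelial markers keep a constant level per endothelial cell, which was not tested. In senescent CM, where medium but no MSCs were added, these markers summed to 4250.2 to 4804 CPM, against 2347.3 to 3462.2 CPM in control. Calls and signs against control under that scaling rest on this assumption. In the fit with replicate 1 of young co-culture and control, 3 members passed, beside 45 of all 17955 genes. USP18, RSAD2, PARP14, IRF7 and SP110 each missed the threshold without at least 1 of young replicate 2, young replicate 4 and control replicate 4.

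In senescent co-culture 14 members were called higher than control (5.82% of all genes) and 0 lower (2.23%; 8.05% in either direction); with scaling on endothelial markers, where the median of all genes was −0.955, 4 members (MX2, XAF1, OAS2 and IFI6) were called higher (1.94% of all genes) and 25 lower (77.1% of all genes), with IFIH1, DHX58, PLSCR1 and PARP9 turning negative. The median fitted change was 0.28, against 0.0159 for all genes, and −0.70 against −0.955 with the other scaling. In 18 members the libraries lay above control without overlap (13.4% of all genes), and in 3 below (12.6%). Both co-cultures are set against the same control libraries, so the pairs of values are not independent. MX2 stood 3.06 ± 0.28 above control in senescent and 4.99 in young co-culture, XAF1 2.71 and 3.79, IFI6 1.95 and 2.21, OAS2 1.63 and 2.65, BST2 1.58 and 2.19, IRF9 1.47 and 1.96, IFIT1 1.43 and 2.79, and IFITM1 1.22 and 2.62. The libraries of IFI6 overlapped between young (129 ± 13.4 CPM) and senescent co-culture (106 ± 42.1 CPM), while those of IFIT1 and IFITM1 did not. In the fit that added replicate 1 of control and of young co-culture together 0 members passed, and IFIH1, DHX58, BST2, IFITM1 and IFI44L each missed the threshold without at least 1 of the other libraries.

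**Figure D4:**
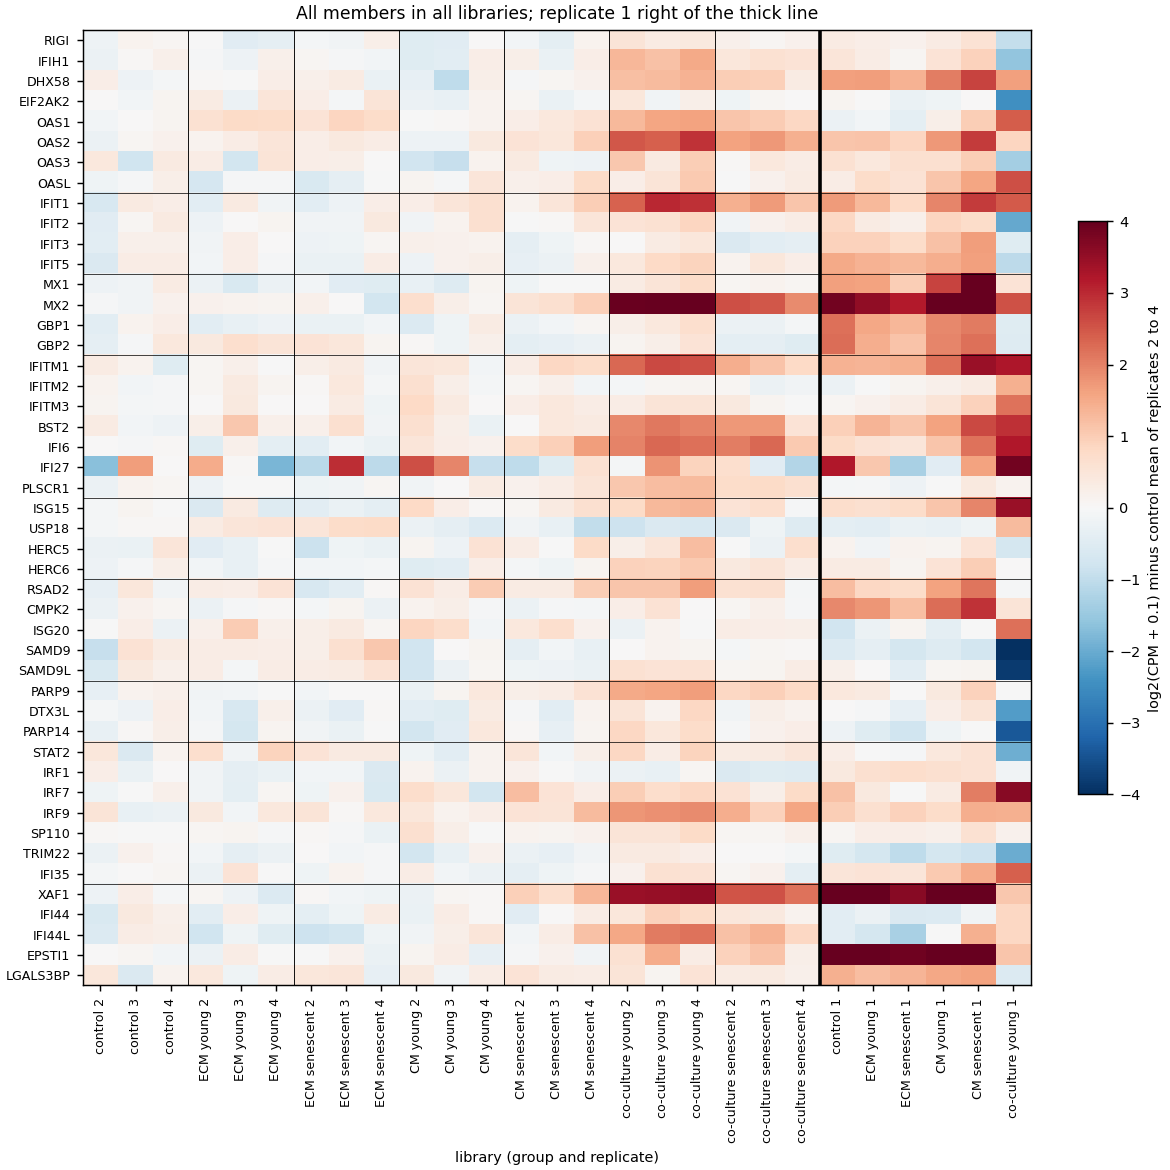
Log2 of CPM plus 0.1 minus the control mean of replicates 2 to 4, for 47 members (rows, by role) and 27 libraries (columns), with replicate 1 right of the thick line. In replicates 2 to 4 both co-cultures are above control for MX2, XAF1, OAS2, IFIT1 and IFITM1 on this scale, more so with young MSCs. With endothelial scaling these 5 stay above 0 in fit. OAS1 is above the control mean in the ECM libraries of replicates 2 to 4 and below it in those of replicate 1.

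With conditioned medium 1 member, IFI6, passed in any of the comparisons of replicates 2 to 4. Between senescent and young CM 0 of the 45 genes tested passed (0.0167% of all 18015 genes, 3 genes), with 4 members at an unadjusted p under 0.05 (5.41% of all genes) and a median of 0.08, against −0.0259 for all genes. DESeq2 called XAF1. These 4 members, XAF1, IFI6, OAS2 and OAS1, had positive fitted changes. XAF1 stood at 0.344, 0.442 and 0.436 CPM in young and 0.908, 0.731 and 1.19 CPM in senescent CM (1.18 ± 0.27, adjusted p = 0.325). IFI6 stood at 39.8, 34.4 and 31.9 CPM in young and 48.0, 55.4 and 91.0 CPM in senescent CM (0.84 ± 0.23, adjusted p = 0.485). OAS2 stood at 9.56, 9.59 and 14.7 CPM in young and 16.4, 15.2 and 21.6 CPM in senescent CM (0.63 ± 0.19, adjusted p = 0.659). In these genes every senescent library lay above every young one, as in 5 of the 45 members (6.88% of all genes), and in 2 members, IFIT3 and GBP2, every one lay below (4.75%). Stromal markers summed to 287.17 to 380.09 CPM in senescent and 145.73 to 198.59 CPM in young CM, and their part was not tested. Against control, 0 members passed in young CM by edgeR (0% of all genes) and 0 by DESeq2, while 846 genes and 4 members had an unadjusted p under 0.05. In senescent CM 1 rose (0.305% of all genes being called higher, 0.505% in either direction), IFI6, from 28.5 ± 0.832 to 64.8 ± 23 CPM (1.19 ± 0.23, adjusted p = 0.0256). IFI6 did not pass without senescent CM replicate 4 or without any 1 of the 3 control libraries.

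On matrix, OAS1 rose against control with both young (0.71 ± 0.14, adjusted p = 0.0251; 0.461% of all genes called higher, 0.649% in either direction) and senescent MSCs (0.72 ± 0.14, adjusted p = 0.038; 0.222% higher, 0.0777% lower, 0.3% in either direction). Its level was 35.0 ± 2.54 CPM in control, 57.0 ± 3.75 CPM on young and 57.8 ± 6.51 CPM on senescent ECM, and ECM and control libraries did not overlap. Replicate 1, not used in these tests, held OAS1 at 29.7 CPM in control, 32.5 CPM on young and 26.8 CPM on senescent ECM. No other member passed in either comparison, and OAS1 passed in 1 of 6 refits that left out a library for young ECM, the one without young ECM replicate 3, and in 0 of 6 for senescent ECM. Between senescent and young ECM 0 of 45 members were called by edgeR (0% of all genes), with 1 member, RSAD2, and 141 genes in all at an unadjusted p under 0.05. DESeq2 called 0 members there. The median change of the members was −0.01.

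The effect of senescence was compared directly between modes in a fit of 21 libraries and 18492 genes. Senescent minus young differed between co-culture and CM for 3 members, all lower (0.0324% of all genes being called lower, 0.0703% higher and 0.103% in either direction): XAF1 by −2.28 ± 0.31 (adjusted p = 0.00398), OAS2 by −1.65 ± 0.25 (adjusted p = 0.00603) and MX2 by −2.41 ± 0.45 (adjusted p = 0.0362). All 3 were lower with senescent MSCs in co-culture and had positive fitted values in CM, which did not pass. XAF1 and OAS2 passed in 16 of 17 alternatives, the exception being all replicates. MX2 passed in 5 of the 17, with values of −3.05 to −2.21, and missed the threshold in 11 of the 12 refits that left out a library, the one without young CM replicate 2 being the exception. The count of members was 7 with DESeq2 (68 of all 18492 genes), and 5 without young CM replicate 4 (42 of 18887). Between co-culture and ECM 0 members differed (0.0108% lower, 0.0487% in either direction), IFITM1 being at −1.45 ± 0.35 with an adjusted p of 0.371, and 15 members were at an unadjusted p under 0.05 (2.93% of all genes). DESeq2 called 1, IFITM1, beside 27 of all 18492 genes.

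Per length of annotated exon the members spanned a wide range of levels. IFITM3 was the most abundant in every group, at 249 CPM per kb in control and 339 CPM per kb in young co-culture, followed by IFITM2 in control with 93.9 CPM per kb. IFI6 stood at 33.0 CPM per kb in control and 149 in young co-culture, ISG15 at 30.8 and 69.2, OAS2 at 1.78 and 10.9, IFIT1 at 1.46 and 9.81, IFITM1 at 0.985 and 5.92, XAF1 at 0.0638 and 0.864, and MX2 at 0.0104 and 0.322 CPM per kb. MX2 and XAF1, which had the largest changes, were among the least abundant members, and MX2 rested on 11 to 15 counts per control library and 355 to 512 per young co-culture library.

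The wider interferon pathway was followed with gene lists that hold none of the 47 members. Of 12 interferon genes, 8 had 0 counts in all 9 control and co-culture libraries of replicates 2 to 4, among them IFNA1, IFNA2, IFNG, IFNL2 and IFNW1, which allows each up to 0.00367 CPM over these libraries together (3 counts, counting error only). IFNB1, the usual first interferon of non-immune cells, had 8 counts in these 9 libraries and at most 2 in one. IFNK had 2 counts and IFNL1 had 1. IFNE, an epithelial interferon, was the only one tested, at 0.300 CPM in young and 0.354 CPM in senescent co-culture, without a call (0.23 ± 0.34, adjusted p = 1). Of 8 receptors and kinases tested 0 passed in any of the co-culture comparisons, while with endothelial scaling 8 were called lower than control in young and 7 in senescent co-culture, beside the 75.1% and 77.1% of all genes. Transcripts alone say nothing of interferon protein in the medium.

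SOCS1, a brake on the receptor kinases, fell against control by 1.50 ± 0.31 in young and by 1.44 ± 0.31 in senescent co-culture, and by more (2.40 and 2.34) with endothelial scaling. SOCS3 passed in senescent co-culture at 0.97 ± 0.22 but stood at 0.05 with that scaling. Of 12 tested genes of nucleic acid sensing upstream of interferon, IKBKE passed, in senescent co-culture against control (0.60 ± 0.13, adjusted p = 0.0143), with the sign turned (−0.37) under endothelial scaling. With that scaling 12 of the 12 were called lower than control in young and 11 in senescent co-culture, again beside most of all genes.

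Genes of antigen presentation, which interferon gamma induces most, were partly too low in counts to test, and 13 of 20 could be tested. HLA-F, HLA-DRA, TAP1, TAP2, TAPBP, PSMB8 and PSMB9 did not pass the filter on low counts. Their low counts alone do not show that these genes were silent, as reads lost in alignment were not examined. From young to senescent co-culture 0 passed and 10 of 13 fitted changes were negative. CIITA, the switch of MHC class II genes, fell against control by 1.42 ± 0.30 in young and 1.30 ± 0.30 in senescent co-culture. HLA-B was at 0.798 CPM in control, 2.47 CPM in young and 4.66 CPM in senescent co-culture, the last change being 2.60 ± 0.39 (adjusted p = 0.00162) and 1.60 with endothelial scaling. HLA-B also stood at 118 to 155 CPM in the stromal-rich replicate 1 libraries. HLA genes are alike and differ between people, so their counts are uncertain. The interferon-induced chemokines CXCL9 and CXCL10 had 0 counts in all 21 libraries of replicates 2 to 4, and CCL5 had 3 and CXCL11 had 17 counts in all.

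Replicate 1 differed from the others in these genes as well. In control replicate 1, 31 of 47 members stood above all 3 other control libraries, among them MX2 at 3.30 CPM, XAF1 at 13.8 CPM, EPSTI1 at 4.81 CPM and GBP1. In replicate 1 of senescent CM, MX2 was at 15.2 CPM, MX1 at 23.4 CPM, IFIT1 at 44.9 CPM and OAS2 at 78.0 CPM, and in young CM they were at 5.86, 9.31, 25.1 and 37.3 CPM. Counting only members above all 4 control libraries gave 9 in each ECM library, 26 in young CM and 35 in senescent CM. For these counts and for that in control replicate 1 the share of all genes was not determined. They therefore show nothing particular to the members. EPSTI1, at 0.298 CPM or less in co-culture, was at 2.03 to 8.68 CPM in these 5 libraries, and CMPK2 at 0.167 to 0.774 CPM. Each of these is a single library, with no replicate to set it against. Replicate 1 of young co-culture stood apart in another manner. Its short members were high and its long ones low relative to replicates 2 to 4: ISG15 stood at 321 CPM, IFITM1 at 10.6 and IFI6 at 262 CPM, while PARP14, SAMD9 and SAMD9L had log2 ratios of −3.98, −4.51 and −4.23. In it OAS2 was at 20.3 and XAF1 at 0.985 CPM, below all senescent co-culture libraries (29.7 to 36.8 and 2.23 to 2.93 CPM). MX2, at 1.28 CPM, lay within the senescent range of 0.768 to 1.29 CPM. IFITM1 lay above its senescent range of 1.86 to 3.00 CPM. Spearman's rho between exon length and the log2 ratio to replicates 2 to 4 was −0.63 over the 47 members and −0.524 over 12718 genes, given as a description of this library.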

How the data were processed

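Poly(A) RNA was sequenced from 27 libraries in 7 groups. The authors deposited whole-number read counts per gene, not normalised. Reads were aligned with HISAT2 2.2.1 and counted with featureCounts 2.0.1 on GRCh38 (hg38), per the submitters' processing notes. Strandedness of the counting and its gene annotation were not given in the sources used here. The library kit marks strand, per the labels' protocols. Of 60648 entries, 44 Y copies of pseudoautosomal genes (109832 counts) were left out, and 60462 had a symbol. Within groups, all pairs of libraries differed beyond sampling noise (lowest chi-square per degree of freedom 21.9).

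Genes were tested with edgeR 4.0.16 (R 4.3.3; quasi-likelihood F-test, 2-sided, TMM, filterByExpr with a minimum of 10 counts, Benjamini-Hochberg over all genes, threshold 0.05), a step tested on simulated data. Control with co-culture (9 libraries), control with ECM and CM (15) and all groups (21) were fitted on replicates 2 to 4, giving 9 comparisons and 2 tests of differences. Replicate 1 was kept out of the tests by the rule that chose the genes and groups. Of its libraries 5 hold much stromal RNA, that of young co-culture not being among them. The labels do not say that replicates were separate cultures, so p-values measure only how far these libraries spread, which may be technical. The labels name 1 sequencing run.

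Same-numbered libraries deviated together in young co-culture and control (r = 0.559, 0.712 and 0.242), young ECM and control (0.55, 0.676 and 0.469) and young CM and control (0.427, 0.705 and 0.523). In each other comparison at least 1 pair had r of 0.1 or less, the limit used to treat numbers as pairs. The main tests nevertheless compared group means without pairing in every comparison, and replicate numbers entered only the replicate block. Alternatives were DESeq2 1.42.0, RLE size factors, scaling on endothelial markers, no filter, all replicates, a replicate block, leaving out each library, and a promoter window of 300 bases. Members past the threshold in senescent against young co-culture, then those with the largest changes among genes at 1 CPM or more without overlap, up to 16, and the most abundant gene of each other role are given by library; other genes only past the threshold, with the interferons always. An item withheld from the text is not reported here. The members and lists were chosen with earlier results of these data known. Gene symbols came from the name table, positions from GENCODE 29.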

Additional observations from a re-analysis of the deposited data

Results flagged for a closer look

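In senescent CM the summed CPM of all members was 2743.5 in replicate 1, far from the 1687.7 to 1801.1 of the other 3 libraries. Summed stromal markers were likewise far from the rest of their group in replicate 1 of control (10765 against 115.79 to 212.82 CPM), young ECM (6126.1 against 105.5 to 167.73), senescent ECM (7247.2 against 129.74 to 170.8), young CM (9746.5 against 145.73 to 198.59) and senescent CM (10565 against 287.17 to 380.09). These came from 18 tests for a library far from the others, 3 gene lists in each of the groups with 4 libraries, which are not independent. Chance alone marks about 1 in 20. The effect of senescence differed between co-culture and CM, by the test of the difference, for OAS2 (−1.652), MX2 (−2.407) and XAF1 (−2.279). Replicate 1, which the comparisons do not use, held members above all 4 control libraries: 9 in young ECM, 9 in senescent ECM, 26 in young CM, 35 in senescent CM and 18 in young co-culture. The share of all genes above all 4 control libraries was not determined, so these counts show nothing particular to the members.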

How the results depend on the processing

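None of the 16 members given by library changed sign in senescent against young co-culture under the 12 alternatives run (over all members tested the negative ones numbered 42 to 45), nor did the 3 differences between co-culture and CM under 17. Members called in senescent against young co-culture, 4 at first, were 0 with all replicates, 10 with DESeq2, 12 without the filter and 1 with endothelial scaling. All of these were lower. Of all genes, DESeq2 called 57 of 17729 lower and the fit without the filter 95 of 34699. Leaving out a library gave 1 to 2 members, where the median stayed within −0.56 and −0.445. MX2 passed in 11 of the 12, OAS2 in 5, XAF1 in 4 and IFITM1 in 4. The MX2 difference between co-culture and CM passed in 5 of 17, those of OAS2 and XAF1 in 16. Senescent co-culture against control went from 14, all higher, to 0 with all replicates (10 to 14 leaving out a library). With endothelial scaling it gave 29, of which 4 were higher and 25 lower, beside 77.1% of all genes called lower. Young co-culture against control went from 21 to 3 with all replicates (17 to 25). For CM, senescent against young went from 0 to 1 with DESeq2 and 2 without the filter, senescent against control from 1 to 0 with all replicates and 3 with DESeq2 (0 to 1 leaving out a library), and young against control from 0 to 1 without the filter. DESeq2 called 49 of all 18015 genes for senescent against young CM and 277 for senescent CM against control. Without the filter 148 of all 36163 genes were called for senescent against young CM and 109 for young CM against control. For ECM, senescent against control went from 1 to 0 with all replicates and 2 without the filter (0 to 0), senescent against young from 0 to 1 without the filter, and young against control from 1 to 0 with all replicates and 0 without the filter (0 to 1). Without the filter these ECM comparisons called 290, 37 and 363 of all 36163 genes. The difference between co-culture and CM went from 3 to 0 with all replicates, 7 with DESeq2 and 10 without the filter (2 to 5 leaving out a library), and that between co-culture and ECM from 0 to 1 with DESeq2 and 3 without the filter. Over all genes DESeq2 called 68 and 27 of 18492 for these differences, and the fit without the filter 184 and 101 of 38082. With the replicate block, the difference between co-culture and CM gave 7 members (54 of all 18492 genes) and senescent CM against control 2 (230 of 18015). Senescent against young co-culture gave 6 with the block (IFIH1 and IFIT1 added), beside 90 of all 17729 genes, 24 of them lower. Young co-culture against control gave 29 with the block, beside 2053 of all 17729 genes. Elsewhere the block moved no count by over 1.5 times; the numbers do not pair the co-culture libraries (r = −0.46, 0.0903 and 0.292). Where a refit leaves 2 libraries in a group, they are assumed to vary like the others. The causes were not tested. Levels far under 1 CPM, as for MX2 in control, rest on few counts.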
